A study of Mus musculus with 6 samples.

Results

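Tob2, which encodes an adaptor that brings deadenylases to mRNA, was 2.29-fold higher in small intestinal mucosa pools labelled Rbm47_IKO than in wt pools, and it was the 1 gene called by edgeR among 10 regulators of AU-rich mRNA decay. The 10 genes were taken by name, for the roles of their proteins, with earlier results of these data known. They are the BTG/TOB adaptors Tob1, Tob2, Btg1 and Btg2, the zinc finger proteins Zfp36, Zfp36l1 and Zfp36l2, and the RNA-binding proteins Elavl1, Hnrnpd and Khsrp. Each was found once among the 38561 genes of the deposited tables, and all 10 were among the 16425 genes that passed the filter on low counts. Their counts ran from 292 to 7567 in a pool.

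Polyadenylated RNA was measured in small intestinal mucosa of C57BL/6J mice aged 8 to 12 weeks. The question was what changes when the RNA-binding protein Rbm47 is deleted from the intestine. There were 3 pools labelled Rbm47_IKO and 3 pools labelled wt, each made of RNA from 3 mice of both sexes according to the labels (the methods allow for slightly larger pools). By the study's methods, the deletion used a Cre driven by the villin promoter, which is active in intestinal epithelium, and the controls carried floxed alleles, whereas the labels call them wt. Other mucosal cells, such as immune and stromal cells, keep the gene in such a mouse.

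Total counts per pool ran from 31560320 to 38951830. Rbm47 was not lower in the pools labelled Rbm47_IKO. This cofactor of C-to-U editing of Apob mRNA had 602.7, 624.6 and 619.8 CPM (counts scaled to the library's total, with TMM normalization) in those pools and 459.8, 449.9 and 472.1 in wt, so all 3 labelled pools were above all wt pools. Its log2 fold change was 0.42 (SE 0.10, edgeR adjusted p = 0.0751, DESeq2 adjusted p = 0.00105). Which part of the gene was deleted, and whether counts outside it remain, cannot be read from counts per gene. Every direction given here is therefore that of the labels. Epithelial markers were abundant in all pools, with a summed level of 48650 to 53478 CPM over 10 markers in the pools labelled Rbm47_IKO and 55631 to 62787 CPM in wt, ranges that did not overlap, and edgeR called none of the 10 (3 at an unadjusted p below 0.05, 2 called by DESeq2 and 1 by limma-voom). By sign, 5 of the markers were higher and 5 lower, with a median log2 fold change of -0.04. Most of the difference in the sum came from Apob, with means of 10378 against 18912 CPM (log2 fold change -0.87, SE 0.19, edgeR adjusted p = 0.0583), whereas Fabp2 stood at 0.51 (edgeR adjusted p = 0.178). Smooth muscle markers varied within both groups, with sums of 361, 586 and 3302 CPM against 90.7, 2803 and 313 CPM, and Myh11, the smooth muscle myosin heavy chain, stood at 0.63 on the log2 scale (SE 1.17, edgeR adjusted p = 0.869). In bulk mucosa, fewer cells of a type and less RNA per cell cannot be told apart.

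AU-rich elements are runs of A and U in the 3′ UTR, built around the pentamer AUUUA, that mark short-lived mRNAs of cytokines, growth factors and immediate early genes. Zfp36 (tristetraprolin) and its relatives bind them and recruit the Ccr4-Not complex, whose deadenylases shorten the poly(A) tail before decapping and exosome decay. BTG/TOB proteins bind the same deadenylases and restrain proliferation. Elavl1 (HuR) mostly protects the mRNAs it binds, Khsrp (KSRP) promotes their decay, and Hnrnpd (AUF1) has been given both roles.

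Several of these regulators carry AU-rich elements in their own mRNAs. The longest annotated 3′ UTR of each gene (GENCODE M21, GRCm38) was searched on the mRNA strand. The words were the pentamer AUUUA, the heptamer UAUUUAU and the nonamer UUAUUUAUU, the preferred word of tristetraprolin. The heptamer holds the pentamer, and the nonamer holds both. All 10 members had the pentamer, 6 had the heptamer and 4 had the nonamer, against 69.7%, 29.3% and 7.75% of the 14131 tested genes with a UTR. The members' UTRs ran from 767 bases in Tob1 to 5429 in Hnrnpd, against a median of 1321 for those genes. Longer UTRs have more room for a word, and the shares were not adjusted for length. The nonamer stood once in Zfp36, once in Zfp36l1, once in Zfp36l2, and 8 times in Elavl1, where most copies overlap a neighbour. All 8 start between bases 3794 and 3840 of its 4218-base UTR, and whether this mucosa uses a UTR that long was not checked. The sites below, all on the minus strand and written 5′ to 3′, are given because each Zfp36 family mRNA holds the word that tristetraprolin prefers, with the nonamer in capitals. For Elavl1 the first of the 8 is given.
Zfp36 (chr7:28376953-28376977): ugacgacuUUAUUUAUUguauuaag
Zfp36l1 (chr12:80108169-80108193): cuguuggaUUAUUUAUUuuagaaau
Zfp36l2 (chr17:84184916-84184940): uauuuaacUUAUUUAUUaucuugug
Elavl1 (chr8:4285790-4285814): caugaaaaUUAUUUAUUuauuuauu

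Among the BTG/TOB genes, the nonamer was not in these windows, and the heptamer stood once in Tob2 and once in Btg2. Those sites are given because Tob2 is the member with the largest change, with the heptamer in capitals.
Tob2 (chr15:81849863-81849885): caccugcuUAUUUAUguacgagg
Btg2 (chr1:134077252-134077274): ugaagagcUAUUUAUacauguuu

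The pentamer was most frequent in Zfp36l1, at 4.90 per kilobase of UTR, and least frequent in Khsrp, at 0.609 per kilobase, with 1 copy in 1642 bases. Tob2 had 4 copies in a UTR of 2457 bases and Tob1 had 3 in 767 bases. Hnrnpd had 10 in 5429 bases and no heptamer. A match is a word in a sequence and not a measured binding site.

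Promoters from RefSeq (GRCm38.p6, 250 bases before to 50 after each start) were found for 9 of the 10 members, not for Zfp36l2. They were searched on both strands for the cAMP response element TGACGTCA and for the CArG box, the site of serum response factor. The first was in Btg2 alone among these 9 (1.79% of 32851 promoters hold it). The second was in Zfp36 and Hnrnpd (1.63% of promoters). The matches, in capitals, are shown because Btg2 and Zfp36 are themselves immediate early genes.
Btg2 (chr1:134079304-134079331, minus strand, word 166 bases upstream of the start): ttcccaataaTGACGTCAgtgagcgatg
Zfp36 (chr7:28379267-28379296, minus strand, word 58 bases upstream): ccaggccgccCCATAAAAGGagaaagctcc
Hnrnpd (chr5:99978919-99978948, minus strand, word at the start): cttccgtcggCCATTTTAGGtggtccgcgg
None of the Tob1, Tob2 and Btg1 windows held either word.

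Levels between genes were compared per length, as normalized RPKM, which is the normalized CPM divided by the gene's exon length in kilobases. In wt mucosa, Zfp36 stood at 71.1 ± 10.3 RPKM (SD, n = 3), Tob1 at 63.1 ± 7.46 and Btg2 at 48.1 ± 7.61, and neighbours among these 3 overlapped from pool to pool. Tob2 at 18.2 ± 1.14 and Btg1 at 17.7 ± 1.95 followed below a gap and overlapped each other. Khsrp at 13.1 ± 0.785 and Zfp36l2 at 12.3 ± 2.05 came next and overlapped. Elavl1 at 8.46 ± 0.663 did not overlap its neighbours, and Hnrnpd at 5.05 ± 1.13 and Zfp36l1 at 3.76 ± 0.258 were lowest and overlapped. Zfp36 made up 81.3 ± 4.26% of the summed Zfp36 family RPKM in wt and 82.7 ± 1.39% in the pools labelled Rbm47_IKO, so tristetraprolin was the main family transcript in both.

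**Figure D1:**
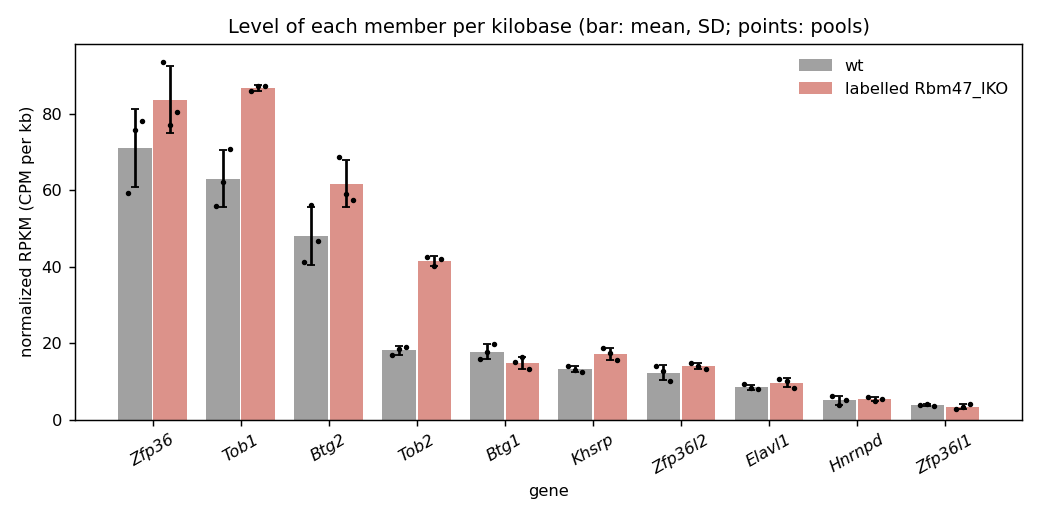
Level of the 10 members per kilobase, in order of the wt mean (y axis: normalized RPKM, bars: mean with SD over 3 pools, points: pools). Tob2 has the largest ratio between its bars, 18.2 against 41.6 RPKM, while it stays below Zfp36, Tob1 and Btg2.

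The BTG/TOB adaptors held the only member called by edgeR. Tob2 had 170.1, 160.2 and 168.3 CPM in the pools labelled Rbm47_IKO and 67.4, 74.2 and 76.0 CPM in wt. The lowest labelled pool was 84.2 CPM above the highest wt pool, and the pools of a group lay close together. The log2 fold change was 1.20 (SE 0.098, 95% interval 0.97 to 1.43, edgeR adjusted p = 0.00596), and Tob2 ranked 8 by p among all genes tested. Of all genes tested, 2.70% were called in either direction and 1.45% were called higher. Tob2 also gave 1.18 (edgeR adjusted p = 0.00154) with the summed muscle level as a covariate and 1.13 (edgeR adjusted p = 0.00949) with a GC correction, 2 fits added after seeing the data. Leaving out the labelled pool 2 kept the size at 1.22 but left an edgeR adjusted p of 0.0570, in a fit that called no gene at all. The gene lies at chr15:81848270-81858326 on the minus strand, and 325 of its exonic bases are shared with a gene on the same strand that had at most 82 counts in a pool, against 2291 or more for Tob2.

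Tob1, the closest relative of Tob2, had 196.9, 199.8 and 199.7 CPM in the pools labelled Rbm47_IKO and 128.3, 142.5 and 162.3 CPM in wt. The groups did not overlap, and the labelled pools were nearly equal while the wt pools were spread. Its log2 fold change of 0.46 (SE 0.11, interval 0.20 to 0.73) missed the threshold in edgeR (adjusted p = 0.0860), although it passed in DESeq2 (adjusted p = 0.0143, with 8.39% of the 14818 genes it gave an adjusted p called) and in edgeR with library size alone (adjusted p = 0.0452, with 3.74% called). Within each pool, Tob2 made up 33.1%, 31.5% and 32.6% of the Tob1 and Tob2 RPKM in the labelled pools. In wt it made up 23.1%, 23.0% and 21.2%, so the share of Tob2 was higher in every labelled pool, which needs no scaling between pools. An exact permutation test cannot go below 0.10 with 3 pools against 3, and none was used.

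Btg2, an early target of p53 that blocks cell cycle entry, had 188.7, 162.4 and 157.7 CPM in the pools labelled Rbm47_IKO and 113.0, 154.4 and 128.6 CPM in wt. The groups did not overlap, but the nearest pools were only 3.29 CPM apart. The log2 fold change was 0.36 (SE 0.14, edgeR adjusted p = 0.257). Btg1, a relative abundant in quiescent cells, had 75.2, 82.0 and 66.3 CPM against 79.4, 88.1 and 98.9 CPM in wt. These ranges overlapped, with a log2 fold change of -0.25 (SE 0.13, interval -0.55 to 0.04, edgeR adjusted p = 0.373). The sum of all 4 adaptors was 212, 203 and 200 RPKM in the labelled pools and 130, 155 and 157 RPKM in wt. Of the other family genes, Btg3 was at -0.74 on the log2 scale (SE 0.31, edgeR adjusted p = 0.286, named for its family and not by a rule), and Btg4 did not pass the filter on low counts.

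**Figure D2:**
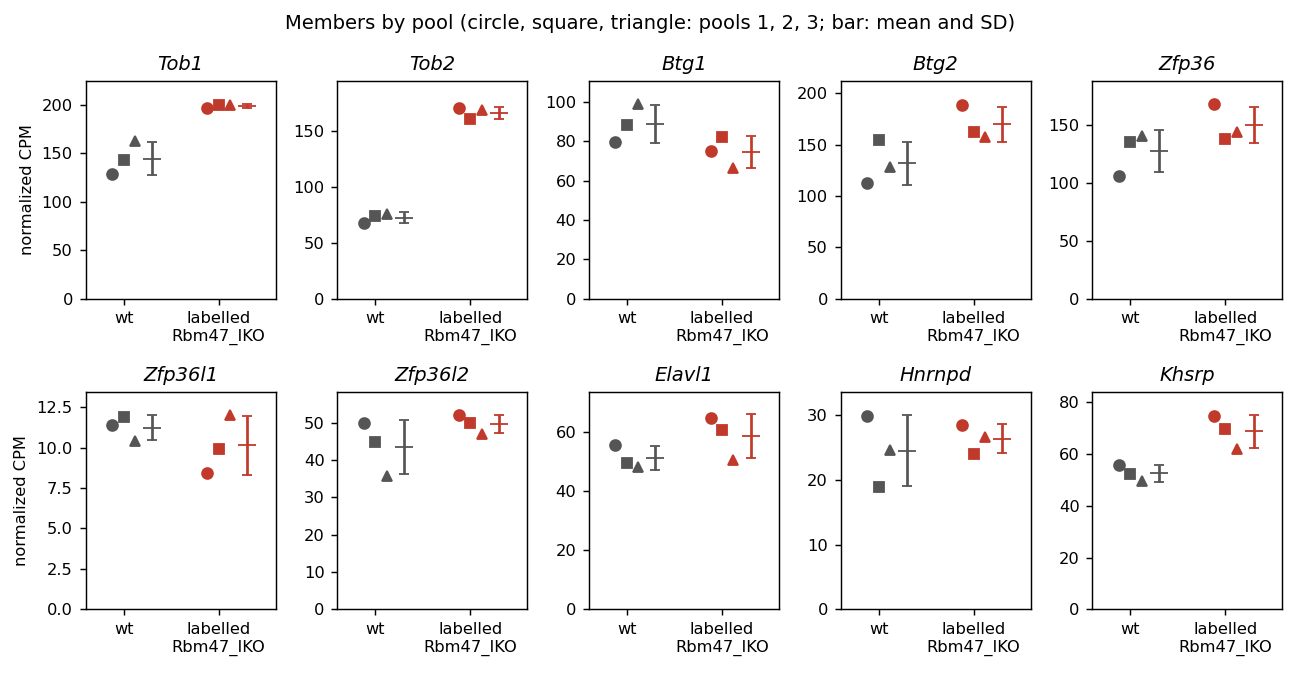
Normalized CPM of each member in the 6 pools (y axis from 0, own scale per gene, symbols: pools 1, 2 and 3, bars: mean and SD of 3 pools). Tob2 is the gene with the widest gap between groups, and the pools of Tob1, Btg2 and Khsrp also do not overlap.

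No member of the Zfp36 family passed the test in edgeR, in DESeq2 or in limma-voom (which called 2.62% of all genes), and none had an unadjusted p below 0.05. Zfp36 had 167.9, 138.4 and 144.3 CPM in the pools labelled Rbm47_IKO and 106.4, 135.7 and 140.3 CPM in wt. The groups overlapped, the labelled pool 1 was highest and wt pool 1 was lowest. The log2 fold change was 0.24 (SE 0.14, interval -0.09 to 0.56, edgeR adjusted p = 0.467). Zfp36l2, which like Zfp36l1 limits proliferation of lymphocyte precursors, had 52.0, 49.98 and 47.0 CPM against 49.9, 44.9 and 35.6 CPM in wt (log2 fold change 0.19, SE 0.14, edgeR adjusted p = 0.562). Zfp36l1 had 8.43, 9.93 and 12.0 CPM against 11.4, 11.9 and 10.4 CPM (log2 fold change -0.15, SE 0.17, edgeR adjusted p = 0.765). Both genes overlapped between groups. An increase of 2-fold in any of the 3 lies outside its 95% interval. Zfp36l1 shares 1672 exonic bases with an opposite-strand gene that had at most 10 counts in a pool. Whether reads were counted by strand is not given in the sources used here.

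Of the other RNA-binding proteins, Khsrp had 74.4, 69.7 and 61.9 CPM in the pools labelled Rbm47_IKO and 55.7, 52.2 and 49.4 CPM in wt. The groups did not overlap, with a log2 fold change of 0.39 (SE 0.11, interval 0.14 to 0.64). The gene missed the threshold in edgeR (adjusted p = 0.113) and passed it in DESeq2 (adjusted p = 0.0448). Elavl1 had 64.5, 60.6 and 50.3 CPM against 55.6, 49.4 and 48.0 CPM, which overlapped (log2 fold change 0.20, SE 0.12, edgeR adjusted p = 0.499). Hnrnpd had 28.5, 24.0 and 26.6 CPM against 29.97, 19.0 and 24.7 CPM, the widest spread in wt of these 3 genes relative to its level (log2 fold change 0.10, SE 0.17, edgeR adjusted p = 0.855). It shares 385 exonic bases with an opposite-strand gene of at most 63 counts. The summed Zfp36 family stood at 10.5 ± 1.15 times the Elavl1 level per length in the labelled pools and 10.4 ± 1.74 times in wt, a ratio that differed by less than the spread between pools.

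Over all 10 members, edgeR called 1 (10.0%, background 2.70%), and 4 had labelled pools that were all above all wt pools (40.0%, against 11.7% of all genes tested). No member was lower without overlap. By sign, 8 were higher and 2 lower, with a median log2 fold change of 0.22 against -0.01 for all genes tested. At an unadjusted p below 0.05 in edgeR were 4 members, against 2756 of all 16425 genes tested. With 10 genes, chosen with earlier results of these data known, these counts are a description. The pools did not contribute alike. The labelled pool 1 was the highest of its group for 7 of the 10 members, and wt pool 1 was the lowest of its group for 5, namely Zfp36 and the 4 adaptors. Without wt pool 1 the log2 fold change of Btg2 was 0.26 and that of Zfp36 was 0.12.

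**Figure D3:**
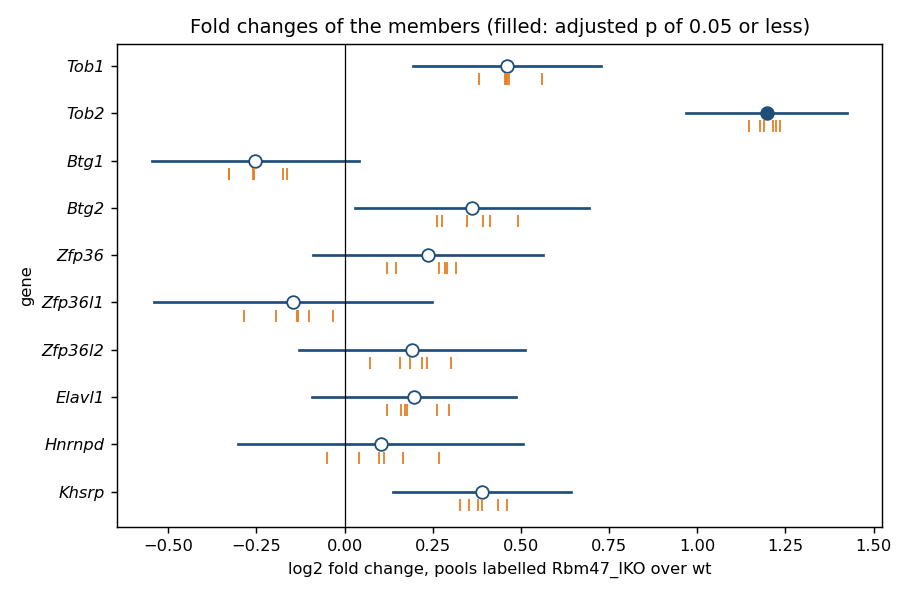
Log2 fold change of each member, pools labelled Rbm47_IKO over wt, with its 95% interval (x axis: log2 fold change, filled point: adjusted p of 0.05 or less, orange ticks: the 6 values with 1 pool left out). Tob2 stands apart at 1.20, and the ticks of Hnrnpd fall on both sides of 0.

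The partners through which the members act were read next, from lists of genes chosen by function. Among 11 genes of the Ccr4-Not complex, the main cytoplasmic deadenylase, 3 were higher and 8 lower by sign, with a median log2 fold change of -0.03. Cnot9, a subunit that docks RNA-binding proteins, was the 1 called gene. It had 85.3, 90.6 and 79.6 CPM in the pools labelled Rbm47_IKO and 58.6, 53.7 and 62.8 CPM in wt. The groups did not overlap, and the log2 fold change was 0.55 (SE 0.11, edgeR adjusted p = 0.0429), a call that was lost when any 1 of the 6 pools was left out (edgeR adjusted p = 0.0774 to 0.245) and, with all pools kept, with RLE factors (0.0595) and with the GC correction (0.0681). Of the other deadenylases, 4 of 6 were higher by sign, edgeR called none and none had an unadjusted p below 0.05, and DESeq2 and limma-voom also called none.

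Of 8 poly(A)-binding proteins and partners, edgeR called none, with 4 at an unadjusted p below 0.05, limma-voom called none and DESeq2 called 1, Pabpc1. Pabpc1, the main cytoplasmic poly(A)-binding protein, is named after its value was seen, with a log2 fold change of 0.47 (SE 0.13, edgeR adjusted p = 0.1199). Of 16 decapping and 5′ decay genes tested, 12 were higher and 4 lower by sign, with a median of 0.17, and edgeR, DESeq2 and limma-voom called none (2 at an unadjusted p below 0.05). The 14 exosome and Ski genes were 7 higher and 7 lower, with none called by the 3 tools and none at an unadjusted p below 0.05. Over the decay machinery, Btg3 and the other UTR-binding proteins together, 2 of 79 genes were called (2.53%, background 2.70%), with a median log2 fold change of 0.06.

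Among 23 other proteins that bind 3′ UTRs, 15 were higher and 8 lower by sign, 8 had an unadjusted p below 0.05, and edgeR and limma-voom each called 1. DESeq2 called 3 others, Igf2bp2, Khdrbs1 and Zc3h12a, named after their values were seen. Igf2bp1, an oncofetal protein that shields mRNAs from decay, had 20, 41 and 38 counts in the pools labelled Rbm47_IKO and 5, 7 and 5 in wt. The groups did not overlap at this low level, and the log2 fold change was 2.56 (SE 0.43, edgeR adjusted p = 0.0290). The call was lost when any 1 of the 6 pools was left out (edgeR adjusted p = 0.0517 to 0.188). A list of 9 genes covered the p38-MK2 axis, which phosphorylates tristetraprolin and keeps it from recruiting deadenylases, and it also held phosphatase genes such as Dusp1. Of the 9, 6 were higher by sign and Map2k3, a kinase that activates p38, was called. Its log2 fold change was 0.76 (SE 0.12, edgeR adjusted p = 0.0256), and when each pool was left out in turn the call held without wt pool 1 and without wt pool 2 but was lost without any of the other 4 (edgeR adjusted p of up to 0.162). Over all these lists and those of the AU-rich and immediate early mRNAs, edgeR called 3 of 121 genes (2.48%, background 2.70%). DESeq2 called 10 of the 121, and it called 8.39% of all genes it gave an adjusted p.

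**Figure D4:**
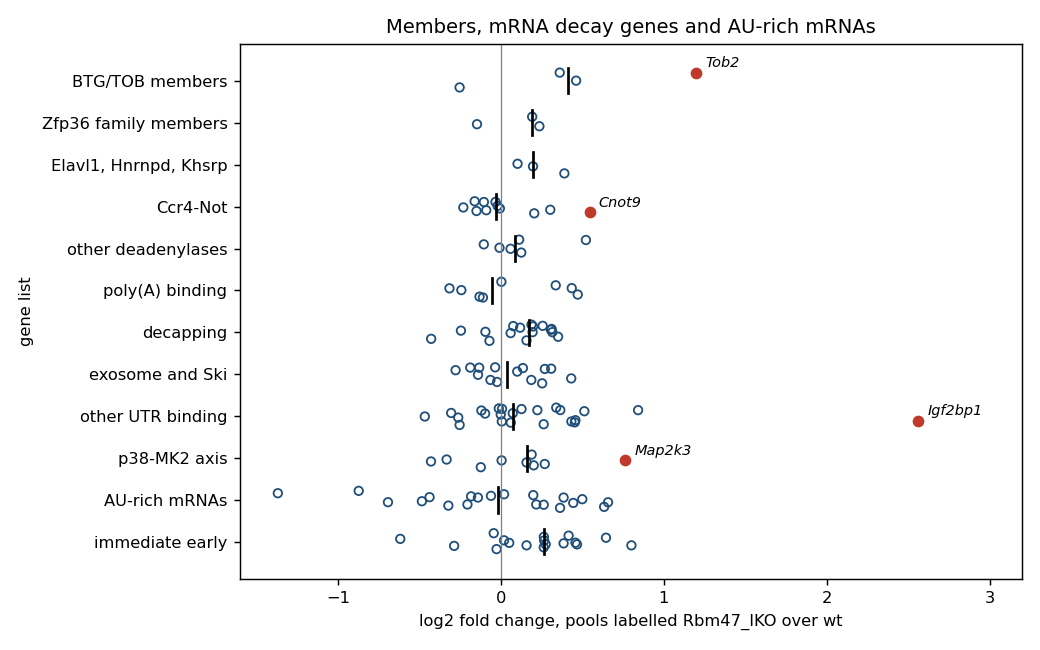
Log2 fold changes, pools labelled Rbm47_IKO over wt, of the members in 3 groups and of 9 gene lists (x axis: log2 fold change, each point a gene, filled red points with names: edgeR adjusted p of 0.05 or less, black bars: median of the list). The 4 called genes are Tob2, Cnot9, Igf2bp1 and Map2k3, and the medians of the lists outside the members lie between -0.05 and 0.26.

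The mRNAs that these proteins are known to control were read from a pair of lists. Of 20 tested textbook AU-rich mRNAs, such as cytokines, chemokines and growth regulators, 10 were higher and 10 lower, with a median log2 fold change of -0.02. These were listed by name, and not all of them held the pentamer in the 3′ UTR searched. edgeR called none, with 3 at an unadjusted p below 0.05, limma-voom called none, and DESeq2 called 3, which were Cx3cl1, Nfkbiz and Pim1, named here after their values were seen. Of 17 immediate early genes, 13 were higher and 4 lower by sign with a median of 0.26, and edgeR and limma-voom called none (2 at an unadjusted p below 0.05, 1 called by DESeq2, Jund, named after its value was seen).

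Fos, the AU-rich immediate early gene, had 451.7, 333.9 and 418.9 CPM in the pools labelled Rbm47_IKO and 268.8, 376.7 and 276.8 CPM in wt, which overlapped (log2 fold change 0.38, SE 0.18, edgeR adjusted p = 0.328). Junb had 268.7, 279.2 and 232.5 CPM against 142.8, 231.5 and 210.7 CPM, with no overlap but only 0.96 CPM between the nearest pools (log2 fold change 0.42, SE 0.19, edgeR adjusted p = 0.316). Egr1 (log2 fold change 0.47, edgeR adjusted p = 0.387) and Dusp1, the phosphatase that turns off p38 (log2 fold change 0.16, edgeR adjusted p = 0.839), overlapped. Their sum over the 17 genes was 2196, 1959 and 1932 CPM against 1412, 1922 and 1804 CPM, lowest in wt pool 1, as were Btg2 and Zfp36, which belong to the same class.

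All genes with the nonamer were then examined as candidates for control by the Zfp36 family. The nonamer was in 1095 tested genes, of which edgeR called 21 higher and 9 lower. For heptamer genes the calls were 63 higher and 70 lower. Over all 14131 tested genes with a UTR they were 231 higher and 193 lower, and the difference between these splits was not tested. The count of called nonamer genes fell to 0 without the labelled pool 2 or without wt pool 3, to 1 without the labelled pool 1, to 11 without the labelled pool 3 and to 19 without wt pool 1. The 30 called genes were 2.74% of the nonamer genes, against 3.00% of all genes with a UTR, and the median log2 fold change was 0.01 for both. The heptamer was in 4138 genes, of which 133 were called (3.21%), and 7149 genes had 2 or more pentamers, of which 241 were called (3.37%). Genes with the nonamer had longer UTRs, with a median of 2503 against 1321 bases, and a lower GC content in them, 42.4% against 45.4%.

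**Figure D5:**
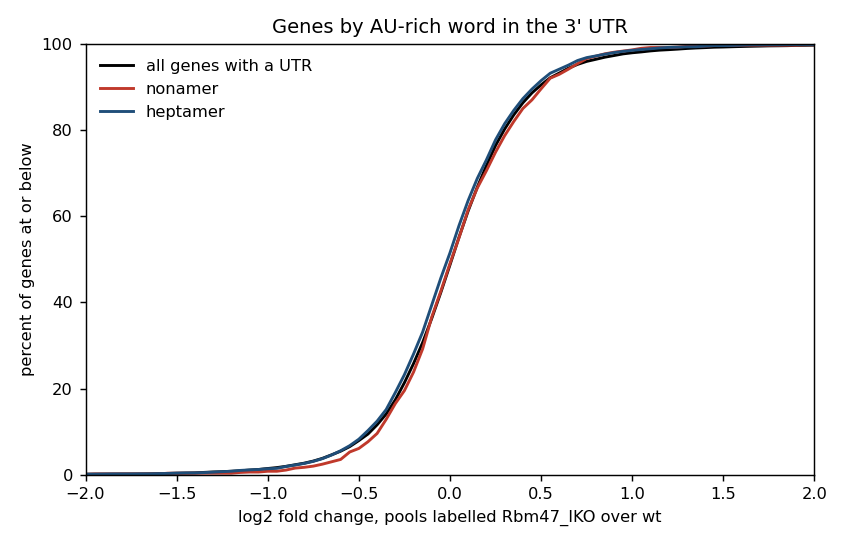
Cumulative share of genes by log2 fold change, pools labelled Rbm47_IKO over wt, for all 14131 tested genes with a UTR, for the 1095 with the nonamer and for the 4138 with the heptamer (x axis: log2 fold change, y axis: percent of genes at or below it). The 3 curves run close together through the whole range.

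The 5 called nonamer genes with the largest fold changes moved in both directions. Ces2b, an intestinal carboxylesterase, had 279, 278 and 182 counts in the pools labelled Rbm47_IKO and 58, 37 and 40 in wt (log2 fold change 2.47, SE 0.29, edgeR adjusted p = 0.0102). Slc13a1, a sulfate transporter, had 770.0, 581.4 and 532.4 CPM against 106.7, 187.2 and 176.0 CPM (log2 fold change 2.003, SE 0.24, edgeR adjusted p = 0.0113). Both were higher in all labelled pools without overlap. Rgs17, a regulator of G protein signalling, had 76, 106 and 83 counts against 16, 29 and 28 (log2 fold change 1.90, SE 0.31, edgeR adjusted p = 0.0258). Cd36, the fatty acid translocase, fell by 1.57 on the log2 scale (SE 0.18, edgeR adjusted p = 0.0095), from 108.1, 126.4 and 157.9 CPM in wt to 49.7, 36.5 and 45.8 CPM. Lsmem1 had 2, 1 and 1 counts in the labelled pools and 20, 14 and 11 in wt (edgeR adjusted p = 0.0316), too few counts for a fold to be given. Areg, the epidermal growth factor receptor ligand amphiregulin, is named after its values were seen: it had 24.6, 29.4 and 21.5 CPM against 7.35, 9.09 and 9.17 CPM (log2 fold change 1.56, SE 0.16, edgeR adjusted p = 0.00875).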

How the data were processed

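Poly(A)-selected RNA of 6 mucosal pools (3 labelled Rbm47_IKO, 3 wt) was sequenced on an Illumina HiSeq. The submitters' processing notes name STAR 2.5.1a, featureCounts 1.4.6-p5 and GRCm38. The deposited tables give raw read counts per gene, and beside them CPM and RPKM, which the authors computed from those counts. CPM and RPKM recomputed from the counts matched the deposited values within 4.9e-11, and all tests used the counts. The tables name genes by Ensembl ID, and 36639 of 38561 IDs matched a symbol. IDs without one held 0.369% of counts and stayed in library sizes and tests.

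Genes passing edgeR's filterByExpr were scaled by TMM (factors 0.957 to 1.035) and tested with the quasi-likelihood test (edgeR 4.0.16, R 4.3.3) with Benjamini-Hochberg adjustment over the 16425 genes tested. This called 443 genes (238 higher, 205 lower) at an adjusted p of 0.05 or less, with 2756 at an unadjusted p below 0.05. CPM in the text are TMM-normalized. SEs are the log2 fold change divided by the square root of F. Replicates are pools, so p-values measure the spread between pools. The scripts were tested on simulated counts. DESeq2 1.42.0, limma-voom (limma 3.58.1), other scalings and filters, a replicate block and leaving out each pool were the alternatives, and a GC offset and a muscle covariate were added after seeing the data.

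The members, lists and tests were chosen with earlier results of these data known. The genes named are Rbm47, the 10 members, the called genes of each list (at most 5, by size of the log2 fold change), Dusp1, Fos, Egr1, Junb and Myh11, by a fixed rule. Apob, Fabp2, Btg3, Btg4, Pabpc1, Igf2bp2, Khdrbs1, Zc3h12a, Cx3cl1, Nfkbiz, Pim1, Jund and Areg are outside it and were named after their values were seen. Markers of B and plasma cells (1 of 8 called, Sdc1, also an epithelial gene, log2 fold change 1.21, adjusted p = 0.0119), T cells (0 of 8), myeloid cells (0 of 7 tested), stroma (0 of 6) and endothelium (0 of 5) were checked with edgeR, and DESeq2 called 1 myeloid gene. At an unadjusted p below 0.05 were 1 B and plasma cell and 1 myeloid gene.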

Additional observations from a re-analysis of the deposited data

How the results depend on the processing

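The number of genes called, 443 with edgeR, was 1243 with DESeq2, 266 with the GC offset and 711 with the muscle covariate, and it ran from 0 to 431 when 1 pool was left out (0 without the labelled pool 2, 11 without wt pool 3, 32 without the labelled pool 1 and 119 without the labelled pool 3). Members called were 3 with DESeq2 (Tob1, Tob2 and Khsrp, where 8.39% of the 14818 genes with an adjusted p were called), 2 with library size alone (Tob1 and Tob2, background 3.74%) and 0 to 1 with 1 pool left out. Genes called from the 121 of the decay and target lists were 10 with DESeq2 (background 8.39%), 6 with library size alone (background 3.74%), 6 with the muscle covariate and 0 to 2 with 1 pool left out. Nonamer genes called were 97 of 1095 with DESeq2 (background 8.39%), 50 of 1095 with library size alone (background 3.74%), 48 with the muscle covariate and 0 to 34 with 1 pool left out. In the main fit, 133 genes with the heptamer and 241 with 2 or more pentamers were called. The cause of these shifts was not tested.

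Tob2 kept its direction in all 15 alternatives (log2 fold change 1.13 to 1.24) and was called in 14, all but the fit without the labelled pool 2. The log2 fold change of Hnrnpd turned to -0.0503 without wt pool 2 and was 0.27 without wt pool 1. With all pools kept, the GC offset gave 0.26 for Hnrnpd, -0.14 for Btg1 and 0.11 for Zfp36l2, and the muscle covariate gave 0.22 for Hnrnpd. Uncalled members other than Hnrnpd also moved by over 1.5 times with 1 pool left out. Zfp36l2 ran from 0.07 (without wt pool 3) to 0.30 (without wt pool 1), Zfp36l1 from -0.29 (without the labelled pool 3) to -0.03 (without the labelled pool 1), Elavl1 from 0.12 (without the labelled pool 1) to 0.30 (without the labelled pool 3), Zfp36 from 0.12 (without wt pool 1) to 0.32, and Btg1 from -0.33 to -0.16. Of the same-numbered pools of the groups, pools 1 deviated together (r = 0.408 across 16425 genes) and pools 2 and 3 did not (r = -0.00258 and -0.277), so the numbers were not treated as pairing. With a replicate block 100 genes were called, 1 member (Tob2), 0 genes of the decay and target lists, so that Cnot9 (edgeR adjusted p = 0.115), Igf2bp1 (0.0808) and Map2k3 (0.0660) were lost, and 6 nonamer genes. DESeq2 gave Igf2bp1 no adjusted p. The median of all genes was -0.01 on the log2 scale in the main fit and also with DESeq2, RLE factors and library size alone. With 3 pools against 3, the 95% interval of Tob1 reached up to 0.73 and that of Btg1 down to -0.55, and low-count genes such as Igf2bp1 and Lsmem1 are the least certain.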
